A study of Mus musculus with 54 samples.

Results

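The comparison of wildtype with Q133H myogenic progenitors at day 1 of differentiation was described across all 17514 genes of the table that sets these groups side by side, of 19054 genes in any of the tables used here. Both groups were H2K mouse myogenic progenitors, sampled 24 h after the change to differentiation medium, with 3 labelled replicates each and so 6 of the series' 54 samples. The wildtype group carried intact Emd and was neither transduced nor kept in puromycin. The Q133H group was the EMD-/y line (Emerin-null in the labels) after lentiviral transduction with emerin carrying the Q133H mutation and selection with puromycin, which per the labels stayed in its medium during differentiation. Wildtype wells were also seeded with fewer cells than wells of the mutant lines. Genotype, transduction, puromycin, and seeding density therefore cannot be told apart. Both groups were expanded in medium with γ-interferon, moved to horse serum, and sequenced from poly-A RNA. H2K progenitors are conditionally immortal cells whose T antigen is driven by an interferon-inducible promoter, and each genotype is represented by a single line. The species of the emerin transgene and its promoter are not given in the sources used here.

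Emerin is a LEM-domain protein of the inner nuclear membrane that binds lamins, and its loss or mutation causes X-linked Emery-Dreifuss muscular dystrophy (EDMD). In culture, myogenic progenitors that lose serum leave the cell cycle, express the transcription factor myogenin, and then switch on sarcomere genes before they fuse into myotubes. Wildtype progenitors make the first of these steps at day 1, and the study asked which genes differed in emerin-mutant progenitors at that step.

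The table gives a single value per gene and group, which the authors derived from the replicates as normalized counts, that is reads scaled for library size. No value per sample is given, so no spread between replicates and no depth per sample can be given, and no test was run. The group values summed to 19.51 M in wildtype and 18.08 M in Q133H. The labels and methods name 3 technical replicates for each of 2 biological replicates, and which of these the labelled replicates are is not stated. Differences are log2 ratios of Q133H over wildtype with a pseudocount of 1, so that a negative value is lower in Q133H, for genes with at least 10 normalized counts in the higher group.

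Of the 17514 genes, 13516 passed this limit and 3998 did not. The median difference of those that passed was -0.007, with quartiles at -0.487 and 0.416. A gene was called higher or lower when the groups were at least 2-fold apart. By that rule 1977 genes (14.6%) were lower in Q133H, 1283 (9.49%) were higher, and 10256 (75.9%) were within 2-fold. Lower genes made up 60.6% of those called. They were also the ones with the larger differences, since 384 genes were at least 16-fold lower and 78 at least 16-fold higher. When both groups were scaled to the same sum, the median of all genes became 0.105, the calls became 1552 higher and 1816 lower, and the share of lower genes was 53.9%.

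**Figure D1:**
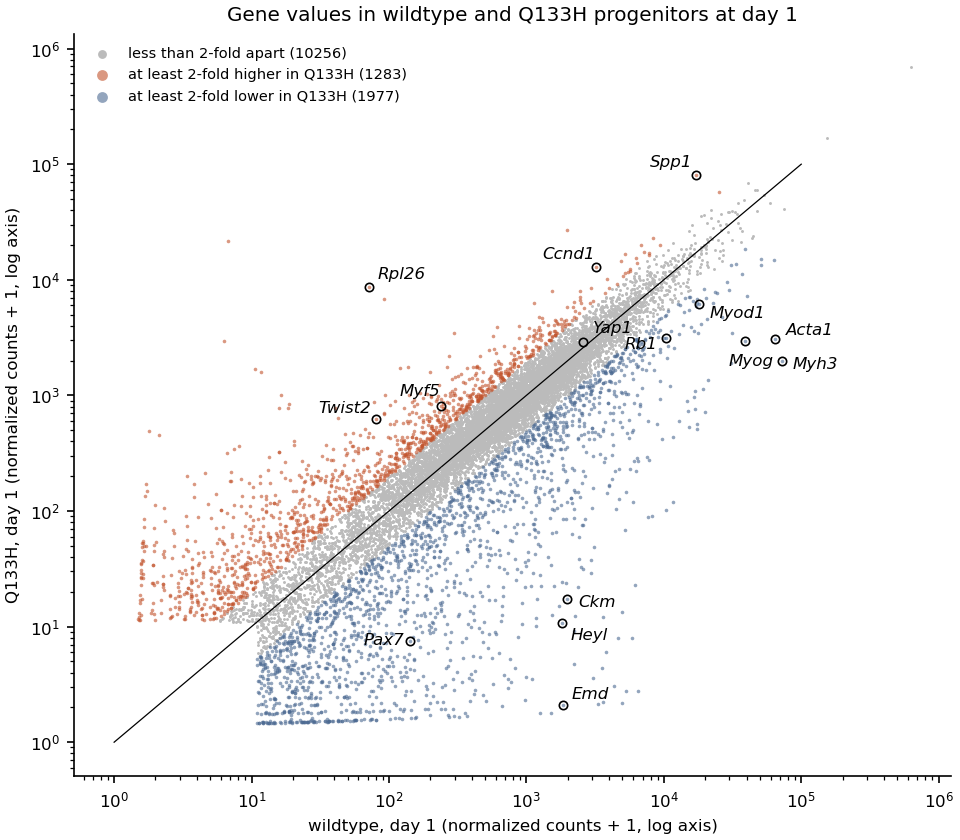
Value of each gene in wildtype (x) and Q133H (y) progenitors at day 1, in normalized counts plus 1 on log axes, for 13516 genes, 1 point per gene. Points on the line are equal in both groups, and the genes below it reach farther from the line than those above it, with Myh3, Acta1, and Myog among the high genes that lie below.

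Emd itself (chrX:74254674-74261563, GRCm38) had 1855 normalized counts in wildtype and 1.09 in Q133H, a difference of -9.79 and the largest decrease of any named gene with at least 100 counts. Its size depends on the pseudocount, as Q133H was near 1, and was -10.73 without one and -8.25 with a pseudocount of 5. At day 0 and day 2 the differences were -9.36 and -9.39. The 4 other lines (EMD-/y itself, and EMD-/y given wildtype emerin, called +EMD, or emerin with the S54F or Del9599 mutation) were at -9.00 to -9.63 against the same wildtype libraries at day 1. The Emd value was thus low in every line made from EMD-/y progenitors, including the one given wildtype emerin, so it separated these lines from wildtype but did not check the Q133H label. By western blot of proliferating cells, the study found more emerin protein in Q133H than in wildtype, and a similar level in +EMD. The Emd RNA value therefore does not give the amount of emerin in these lines.

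The labelled cell type was checked against its markers. Desmin (Des), the muscle intermediate filament, had 29024 normalized counts in wildtype and 9594 in Q133H. M-cadherin (Cdh15), the adhesion molecule of myogenic progenitors, had 12967 and 3415. Both lines thus carried Des and Cdh15 at day 1, at a lower level in Q133H. Of the other muscle markers checked, Myod1, Myog, and Pax7 were lower in Q133H and Myf5 was higher, with values given below. Msc, which encodes musculin, was under the limit in both groups, at 2.49 and 2.46.

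The myogenic regulatory factors, which commit a progenitor to muscle and drive its differentiation, were 9 lower and 2 higher among the 16 that passed the limit (19 were listed), with a median of -1.36 that became -0.69 without the limit. Myod1, which commits progenitors to the muscle lineage, had 18144 normalized counts in wildtype and 6217 in Q133H, or 2.92-fold fewer. Myog, the myogenin gene that marks entry into differentiation, had 38847 and 2928, or 13.3-fold fewer. Its cofactor Mef2c had 4226 and 304, or 13.9-fold fewer. These genes were close to wildtype before differentiation, with day 0 differences of -0.29 for Myod1, -0.49 for Myog, and 0.36 for Mef2c. Mef2a (-2.17), Mef2d (-1.17), Tead4 (-3.05), and Rbm24 (-3.67), an RNA-binding protein of muscle, were lower as well. In bulk RNA, fewer cells that express a gene and less RNA per cell cannot be told apart, here and below.

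Genes of undifferentiated progenitors differed in both directions. Myf5, a marker of activated progenitors, was higher, with 240 normalized counts in wildtype and 808 in Q133H. Pax3, which acts upstream of Myod1, had 237 and 466, a difference of 0.97 that was just under 2-fold. Eya1, a transcriptional coactivator in early muscle, was higher at 1.11. Pax7, the defining factor of satellite cells, went the other way, with 141 in wildtype and 6.54 in Q133H. It was lower in Q133H on each day, at -6.35 at day 0 and -2.55 at day 2, whereas the other 4 lines stood at 2.64 to 3.77 above the same wildtype libraries at day 1. Of 19 Id proteins and bHLH partners, which restrain or assist the myogenic factors, 5 were higher and 5 lower, with a median of -0.40. The higher ones were Id2 (1.82), Id3 (1.05), Id4 (2.13), Twist1 (1.75), and Twist2, which had 80.1 normalized counts in wildtype and 625 in Q133H. Id1 (0.39) and Hes1 (0.37) were within 2-fold. The lower ones were Bhlhe41 (-1.23), Hes6 (-1.27), Snai1 (-1.66), Zeb1 (-1.81), and Heyl, a Notch-responsive repressor, with 1811 and 9.64.

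Sarcomere genes, which build the contractile apparatus, were lower with few exceptions. All 15 myosin heavy and light chain genes past the limit were lower (median -4.10), as were 15 of 16 thin filament genes (-4.06) and 29 of 31 Z-disc, M-band, and titin genes (-4.47). Embryonic myosin heavy chain (Myh3), the first isoform made by new myocytes, had 72013 normalized counts in wildtype and 1996 in Q133H, 36.1-fold fewer. Skeletal α-actin (Acta1) had 64724 and 3046, and α-actinin-2 (Actn2), which crosslinks actin at the Z-disc, had 7675 and 87.1. The differences spanned a wide range, from -1.25 for Mylk2, a myosin light chain kinase, to -7.70 for the adult isoform Myh2. The exceptions were Tpm1 (0.11), a tropomyosin also made outside muscle, the chaperone Cryab (-0.94), and Xirp2, which was higher at 1.06 with 12.1 and 26.3 normalized counts.

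The machinery that couples excitation to contraction was lower in 18 of 19 genes, with a median of -3.98. Atp2a1, the calcium pump of the sarcoplasmic reticulum, had 11580.5 normalized counts in wildtype and 119 in Q133H. Ryr1, the calcium release channel, had 6043 and 271, and Cacna1s, its voltage sensor, was at -5.06. Asph (0.02), whose locus also encodes proteins outside muscle, was the gene that did not differ. Acetylcholine receptor and synapse genes had a median of -1.85, with 10 of 12 lower, and the receptor subunits ranged from -1.24 for Chrnb1 to -3.24 for the embryonic γ subunit Chrng. In muscle energy metabolism, 17 of 21 genes were lower (median -2.59). Muscle creatine kinase (Ckm), which buffers ATP, had 1987 normalized counts in wildtype and 16.3 in Q133H. The dystrophin-glycoprotein complex, which anchors the cytoskeleton to the matrix, had 10 of 18 genes lower and 2 higher. Dystroglycan (Dag1) was at -2.18 and α-sarcoglycan (Sgca) at -3.86, while dystrophin (Dmd) was higher, with 42.3 and 156 normalized counts.

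Genes of myoblast fusion were lower at their core. Myomaker (Mymk), a membrane protein required for fusion, had 17468 normalized counts in wildtype and 564 in Q133H. Its partner myomixer (Mymx) had 830 and 37.3, and caveolin-3 (Cav3) had 1928 and 22.7. Of the 21 fusion and adhesion genes past the limit, 12 were lower and 3 higher, with a median of -1.04. The higher ones were Neo1 (1.08), Mertk (1.32), and Elmo1 (1.64), the latter pair with roles in engulfment of dying cells. Myof (-0.09) and Dock1 (0.09) did not differ.

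**Figure D2:**
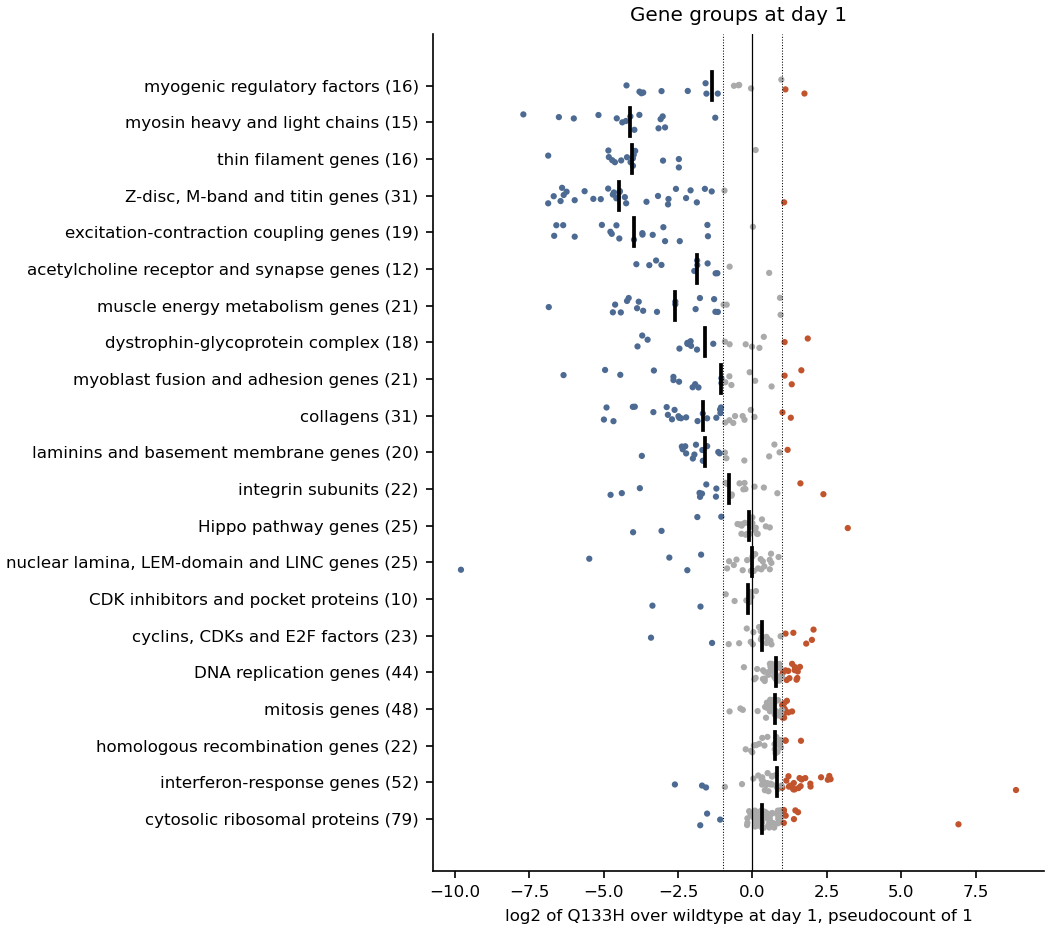
Log2 difference between Q133H and wildtype at day 1 for the genes of 21 lists, 1 point per gene, with the number past the limit in parentheses and a bar at the list's median. Dotted lines mark 2-fold, blue genes are lower and red genes higher in Q133H, and the 4 sarcomere and coupling lists sit at medians of -3.98 to -4.47 while replication and mitosis genes sit at 0.79 and 0.76.

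Promoters of genes from both ends of this range are shown to give the context of the motif counts that follow. Apart from Myog, they were chosen among called genes whose promoter holds the marked motif, so its presence there is not a result. The sequences are RefSeq's for GRCm38.p6, written 5′ to 3′, with 250 bases before and 50 after the transcription start. The first 3 are from lower genes, Myog (chr1:134289754-134290053, plus strand), Atp2a1 (chr7:126463024-126463323, minus strand), and Mybpc1 (chr10:88605103-88605402, minus strand), which encodes a myosin-binding protein and had 1176 normalized counts in wildtype and 9.12 in Q133H. The last pair are from higher genes of cell division, Cdca5 (chr19:6084847-6085146, plus strand), a regulator of sister chromatid cohesion, and Espl1 (chr15:102296043-102296342, plus strand), the separase gene. Capitals mark CANNTG in Myog, the E-box bound by myogenic bHLH factors, of which not every match is in capitals in the other promoters. They mark CAGCTG in Atp2a1 and Mybpc1 and TTTGAA, the core of the cell cycle homology region, in Cdca5 and Espl1.
Myog: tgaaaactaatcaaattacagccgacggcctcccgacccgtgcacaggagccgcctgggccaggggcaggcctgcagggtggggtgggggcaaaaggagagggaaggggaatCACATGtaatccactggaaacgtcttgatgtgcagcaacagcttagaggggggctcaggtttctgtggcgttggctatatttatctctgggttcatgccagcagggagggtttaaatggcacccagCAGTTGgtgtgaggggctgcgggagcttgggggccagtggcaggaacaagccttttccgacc
Atp2a1: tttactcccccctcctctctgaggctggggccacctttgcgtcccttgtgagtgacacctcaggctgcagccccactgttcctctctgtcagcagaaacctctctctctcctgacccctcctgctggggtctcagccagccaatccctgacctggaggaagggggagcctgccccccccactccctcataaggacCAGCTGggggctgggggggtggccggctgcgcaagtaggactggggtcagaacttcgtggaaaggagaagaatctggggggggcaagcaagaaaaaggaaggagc
Mybpc1: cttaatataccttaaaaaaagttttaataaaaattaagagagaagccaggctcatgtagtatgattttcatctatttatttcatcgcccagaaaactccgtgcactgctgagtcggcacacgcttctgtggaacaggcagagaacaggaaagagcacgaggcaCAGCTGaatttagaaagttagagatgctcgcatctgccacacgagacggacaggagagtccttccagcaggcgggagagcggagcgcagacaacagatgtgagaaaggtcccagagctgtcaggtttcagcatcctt
Cdca5: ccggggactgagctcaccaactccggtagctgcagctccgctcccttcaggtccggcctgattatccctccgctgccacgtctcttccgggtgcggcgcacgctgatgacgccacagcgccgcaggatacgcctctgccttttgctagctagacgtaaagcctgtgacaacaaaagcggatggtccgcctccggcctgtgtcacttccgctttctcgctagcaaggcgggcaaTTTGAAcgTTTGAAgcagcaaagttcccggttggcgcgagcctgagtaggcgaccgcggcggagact
Espl1: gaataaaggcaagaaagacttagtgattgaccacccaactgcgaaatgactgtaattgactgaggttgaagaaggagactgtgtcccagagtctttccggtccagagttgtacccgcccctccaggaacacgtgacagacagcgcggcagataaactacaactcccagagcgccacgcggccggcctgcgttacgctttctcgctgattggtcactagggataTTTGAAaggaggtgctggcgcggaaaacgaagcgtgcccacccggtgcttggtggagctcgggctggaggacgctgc

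Both strands were searched, and every CAGCTG also counts as a CANNTG, which 72.3% of all promoters hold. The narrower E-box, CAGCTG, stood in 16.3% of all 32851 promoters of this length, in 24.1% of those of lower genes, and in 15.8% of those of higher genes. In the sarcomere and coupling lists, where 59 of 81 genes had a promoter, 28 of 68 promoters (41.2%) held it. TTTGAA stood in 17.9% of all promoters, 12% of those of genes past the limit, and 40 of 85 (47.1%) in the replication and mitosis lists, where 75 of 92 genes had a promoter. Among the genes called in this comparison it was about as frequent in lower (12.8%) as in higher genes (13.6%). These are counts of letters in a window and not of bound sites.

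Genes of replication and mitosis differed in the opposite direction from muscle genes, by smaller amounts. DNA replication genes had a median of 0.79, with 12 of 44 higher and 0 lower. Mitosis genes had a median of 0.76, with 13 of 48 higher and 0 lower, and homologous recombination genes a median of 0.76, with 3 of 22 higher and 0 lower, a count near the 9.49% of all genes that were higher. Most of these genes were therefore above wildtype but within 2-fold. Mki67, the proliferation antigen, had 4527 normalized counts in wildtype and 6846 in Q133H (0.60). Among those called were Cdc6, with 349.6 and 1059 normalized counts, and Mcm10 (1.51), which load and fire replication origins, thymidine kinase Tk1 (1.48), the kinase Plk1 (1.06), and the recombination nuclease Exo1 (1.63).

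Of 23 cyclins, CDKs, and E2F factors, 5 were higher, 2 were lower, and 16 were within 2-fold, with a median of 0.31. Cyclin D1 (Ccnd1), which drives exit from G1, had 3229 normalized counts in wildtype and 12901 in Q133H, or 3.99-fold more. Mybl2, a transcription factor of dividing cells, had 202 and 839, and Myc had 298 and 1043. Cyclin D3 (Ccnd3), the D-type cyclin of differentiating muscle, was lower at -1.36, and E2f2 was lower at -3.41. Of the 10 CDK inhibitors and pocket proteins, which hold cells out of the cycle, 2 were lower and 8 within 2-fold, with a median of -0.15. That count is near the 14.6% of all genes that were lower. Rb1, the retinoblastoma protein needed for permanent exit, had 10426 normalized counts in wildtype and 3109.9 in Q133H, or 3.35-fold fewer, and Cdkn1c (p57) had 3047 and 296. Cdkn1a (p21), with 44912 and 24113, stayed within 2-fold at -0.90. The related pocket proteins Rbl1 (0.12) and Rbl2 (-0.03) did not differ.

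The same lines were then followed from day 0, to see at which day these differences were present. At day 0, 844 of 13373 genes (6.31%) were higher in Q133H and 1131 (8.46%) lower. At day 2, 2449 of 13593 (18.0%) were higher and 2103 (15.5%) lower. Day 1 libraries enter neither of these tables. Of the 1977 genes lower at day 1, 621 were lower at day 0 (31.4% of the day 1 list and 54.9% of the day 0 list), and 1396 were lower at day 2 (70.6% and 66.4%). Of the 1283 higher genes, 436 were higher at day 0 (34% and 51.7%) and 951 at day 2 (74.1% and 38.8%). Few genes called at day 1 had the opposite call at day 2, 13 of the higher and 28 of the lower. Of the genes higher at day 1, 10.4% had been lower at day 0, near the 8.46% of all genes that were lower then. Of the genes lower at day 1, 3.09% had been higher at day 0, against 6.31% of all genes.

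Sarcomere genes were closer to wildtype before differentiation. The day 0 medians were 0.17 for myosins, -0.04 for thin filament genes, -0.38 for Z-disc, M-band, and titin genes, and -0.13 for coupling genes. Single genes were already lower at day 0, such as Myh2 at -4.25. In all, 1 of 12 myosin genes was lower then and 2 were higher. Lower as well were 1 of 17 thin filament genes, 3 of 29 Z-disc, M-band, and titin genes, and 4 of 19 coupling genes. Over all genes, 8.46% were lower at day 0 and 6.31% higher. The day 2 medians, in the same order, were -2.93, -2.58, -2.69, and -2.45. Within wildtype, 1677 of 13432 genes (12.5%) were higher at day 1 than at day 0 and 1384 (10.3%) lower. Within Q133H, 757 of 13118 (5.77%) were higher and 835 (6.37%) lower. The transition tables share their day 1 libraries with the comparison above. Myosin genes had a median of 2.53 from day 0 to day 1 in wildtype, with 14 of 15 higher. In Q133H the median was -1.35, with 9 of 10 lower. From day 1 to day 2 the median was 2.45 over 13 genes in Q133H and 2.03 over 15 in wildtype. These medians do not cover the same genes. A gene passes if either day reaches 10, so genes low at day 1 in Q133H enter through their other day.

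Single genes showed the same course, with the counts of each day normalized separately. The transitions within Q133H gave -0.65 for Myog from day 0 to day 1 and 2.27 from day 1 to day 2. Myog had 7606 normalized counts at day 0, 38847 at day 1, and 51649 at day 2 in wildtype, against 5422, 2928, and 21442 in Q133H. Mymk had 3329, 17468, and 51884 in wildtype, against 2128, 564, and 6504. In Q133H both genes were thus lowest at day 1 and higher at day 2 than at day 0. Rb1 had 1818, 10426, and 10234 in wildtype and 1876, 3109.9, and 5842 in Q133H, so it was above its day 0 value in both lines. Ccnd1 had 10272.5, 3229, and 729.9 in wildtype and 8759, 12901, and 7947 in Q133H.

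**Figure D3:**
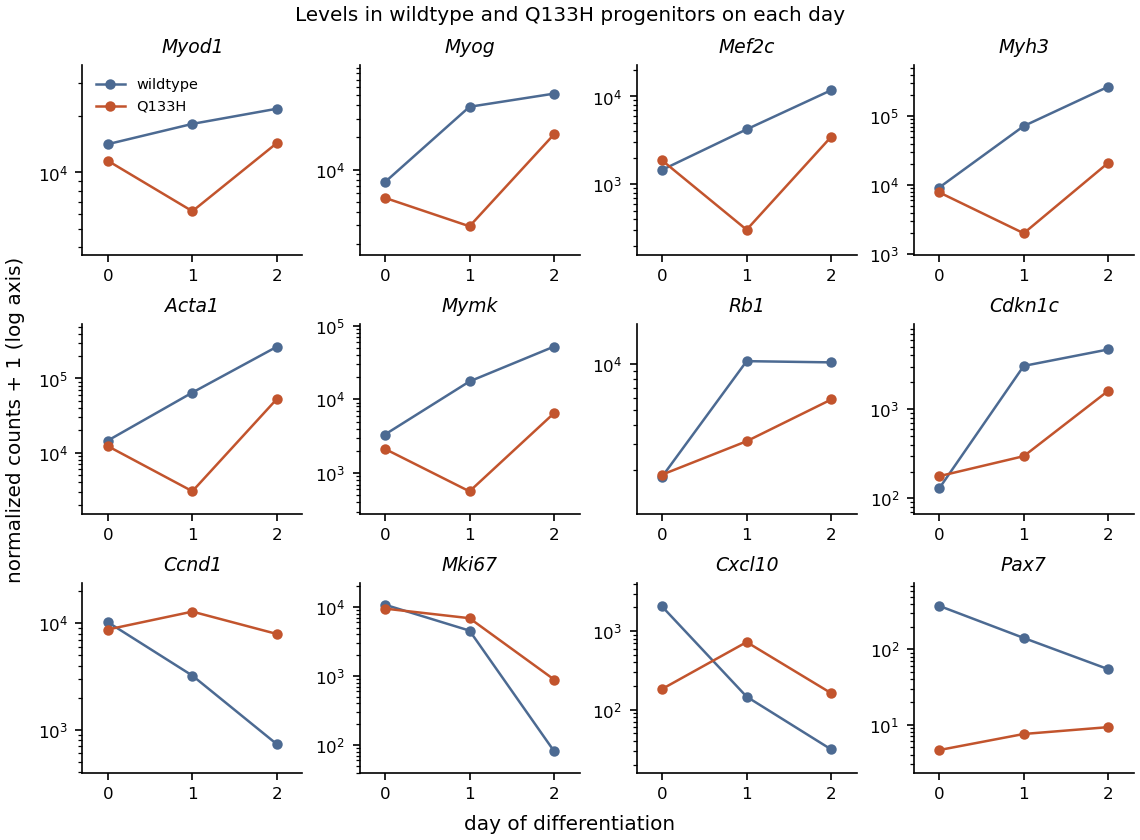
Normalized counts plus 1 (log axes) of 12 genes in wildtype (blue) and Q133H (red) progenitors at days 0, 1, and 2, 1 value per group, each day from its own table and normalized separately. Myog, Mef2c, Myh3, Acta1, and Mymk go up from day 0 to day 1 in wildtype and down in Q133H, Ccnd1 does the reverse, and Pax7 is low in Q133H throughout.

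Replication genes had a median of -0.74 from day 0 to day 1 in wildtype, with 11 of 44 lower, and 0.15 in Q133H, with 0 of 44 called. For mitosis genes the medians were -0.92, with 18 of 48 lower, and -0.02, again with 0 of 48 called. By day 2 the mitosis genes stood at 2.81 above wildtype, with 44 of 48 higher. Other lists moved the same way in both lines. Of 23 p53 targets, 19 were higher at day 1 than at day 0 in wildtype and 13 in Q133H, with medians of 1.68 and 1.08. Of 32 sterol and fatty acid synthesis genes, 17 were higher in wildtype and 22 in Q133H, with medians of 1.03 and 1.53.

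**Figure D4:**
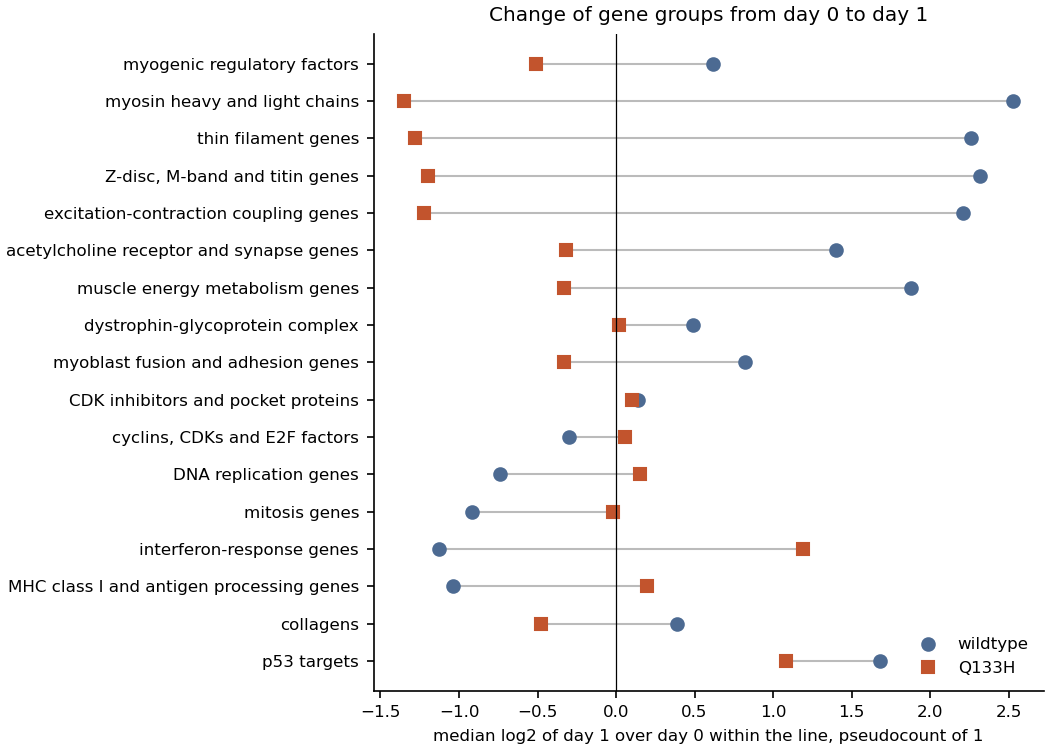
Median log2 change from day 0 to day 1 within wildtype (blue circles) and within Q133H (red squares) for 17 gene lists, each over the genes past the limit in that line. Myosin genes lie at 2.53 and -1.35, interferon-response genes at -1.13 and 1.19, and p53 targets at 1.68 and 1.08.

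Interferon-response genes changed sides between day 0 and day 1. At day 0, 27 of 52 were lower in Q133H and 4 higher, with a median of -1.29, and at day 1, 22 of 52 were higher and 3 lower, with a median of 0.83. Cxcl10, a chemokine induced by interferon, had 2053 normalized counts at day 0 and 146 at day 1 in wildtype, against 182 and 723 in Q133H. Irf1, a transcription factor induced by interferon, was at -2.59 at day 0 and within 2-fold at day 1 (0.45). Antiviral genes of the Ifit and Oas families were among those called, with Ifit1 at 2.53 and Oasl1 at 2.62, whereas Gbp5 (-1.69) and Cxcl9 (-1.56) were lower.

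Antigen presentation genes followed at day 0 but not at day 1. Of 22 MHC class I and antigen processing genes, 14 were lower and 1 higher at day 0 (median -1.43), and 2 were lower and 2 higher at day 1 (0.13). Psmb10, an immunoproteasome subunit, was at -2.47 at day 0 and 0.76 at day 1. Against the same wildtype libraries at day 1, the median of the interferon-response genes was 0.57 in Del9599 and below 0 in the others, at -0.27 (S54F), -0.30 (EMD-/y), and -0.67 (+EMD). The part of the γ-interferon in the expansion medium in these values was not tested.

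Among genes of the extracellular matrix, which progenitors secrete and bind, collagens and laminins were mostly lower and other groups mixed. Of 31 collagen genes past the limit (44 listed), 21 were lower and 2 higher, with a median of -1.67. Col1a1, a fibrillar collagen, had 9417 normalized counts in wildtype and 937 in Q133H, and Col3a1 had 24577 and 7740. Of the basement membrane collagens, Col4a1 (-0.78) and Col4a2 (-0.64) were within 2-fold. Laminins and other basement membrane genes had 13 of 20 lower, 1 higher, and a median of -1.59. Nidogen-2 (Nid2), which links laminin to collagen IV, had 17710.1 and 3490 normalized counts, while nidogen-1 (Nid1) was at 0.74 and Lamb1 at 0.91. Collagens had been lower by less at day 0, with a median of -0.50, and stood at -0.32 at day 2.

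Adhesive glycoproteins were mixed, with 13 of 36 lower and 5 higher (median -0.35). Osteopontin (Spp1), a secreted integrin ligand, had 17025 normalized counts in wildtype and 80125 in Q133H, 4.71-fold more. Reln, which encodes reelin, had 8.39 and 39.4, and von Willebrand factor (Vwf) had 19.6 and 1.69. Thrombospondin-1 (Thbs1) was within 2-fold at -0.27. Vitronectin (Vtn) was under the limit, with 1.12 and 0.300. Of the syndecans, cell surface proteoglycans, Sdc4 was higher, with 1971 and 5809 normalized counts, and Sdc3 (-0.17) was not called. Over all 27 proteoglycans and syndecans, 11 were lower and 5 higher (median -0.59), and of 44 matrix proteases, inhibitors, and crosslinkers 9 were lower and 6 higher (-0.09). The shares over all genes, to be set beside the counts of this paragraph, were 14.6% lower and 9.49% higher. The matrix protease counts lie close to them. Integrin subunits had 9 of 22 lower and 2 higher. Itga4 (-1.78) and the laminin receptor subunit Itga6 (-1.55) were lower, and Itgb1, the common β subunit, was at -0.69.

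Hippo pathway genes mostly matched wildtype in level. Of 25 measured, 4 were lower and 1 higher, with a median of -0.12. The count of lower genes is near the 14.6% of all genes that were lower. The effectors Yap1 (2570.3 normalized counts in wildtype and 2906 in Q133H) and Wwtr1, which encodes Taz (5200 and 5187), differed by 0.18 and less than 0.01 in size. The kinases were within 2-fold as well, with Stk3 at -0.00, Stk4 at -0.25, Lats1 at 0.32, and Lats2 at -0.17. The called genes were other members of the list. They were Tead4 and the Tead cofactors Vgll2 (-4.01) and Vgll3 (-1.05), the cadherin Dchs1 (-1.85), and Wwc1 (3.20), an upstream regulator that was also higher in the other 4 lines at 1.99 to 3.29. Tead1 (-0.50), Tead2 (0.15), and Tead3 (-0.37) were within 2-fold. Of 24 Yap target genes, 6 were higher and 3 lower (0.04), where 9.49% of all genes were higher and 14.6% lower. The share of higher genes was thus above that of all genes. The standard reporters Ccn1 (0.41), Ccn2 (0.06), and Ankrd1 (-0.68) were within 2-fold.

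Of the genes for the nuclear lamina and its partners, 5 of 25 were lower and 0 higher, with a median of -0.00. Over all genes, 14.6% were lower. Apart from Emd these were Plpp7 (-5.48) and Tmem38a (-2.79), both membrane proteins of muscle, the LINC protein gene Syne1 (-2.19), and lamin B2 (Lmnb2, -1.72). Lamin A/C (Lmna) had 21055 normalized counts in wildtype and 21044 in Q133H. The other LEM-domain genes Tmpo (0.19), Lemd3 (-0.05), and Lemd2 (-0.18) differed little, as did Tor1aip1 (0.40). Among 22 deacetylase and corepressor genes, Hdac3, a binding partner of emerin, was at 0.10 and Gmcl1, another partner, at 0.37. Hdac9 (-1.83) and Hdac11 (-2.92) were lower and Hdac7 (1.08) was higher.

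Markers of other cell types were examined in the same values. Of 11 fibroblast and mesenchymal markers listed, 10 passed the limit, with 5 lower and 1 higher. The summed level of all 11 was 75990 normalized counts in wildtype and 30090 in Q133H, most of it from collagens that myogenic cells also make. The sums that follow also cover all listed markers, and the numbers in parentheses are those past the limit. Endothelial markers (5 past the limit) summed to 124 and 79.9, and leukocyte markers (3) to 184 and 283. Adipocyte markers (3) summed to 1504 and 1058, with 2 lower. Epithelial markers (2) summed to 106 and 186, bone and cartilage markers (6) to 1571 and 1973, and Schwann and neural markers (4) to 56030.0 and 15500.0, the latter largely Nes, which progenitors express. Smooth muscle and SRF target genes had 9 of 26 lower and 0 higher, with a median of -0.38. Of the defining markers, Pdgfra of mesenchymal cells had 26.2 and 35.1 normalized counts, and Cdh1 of epithelia 13.5 and 0.76. The part of other cells in the differences above was not tested.

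The 15 named genes with the largest increase and the 15 with the largest decrease among those with at least 100 normalized counts included several that differed by a like amount in every line that carried the EMD-/y background. Eif2s3y, a Y-linked translation factor gene, had 15.4 normalized counts in wildtype and 1006 in Q133H and was at 6.12 in EMD-/y and more than 5.5 in the 3 other lines, while the Y-linked genes Kdm5d (-0.74), Ddx3y (-0.52), and Uty (-0.51) were within 2-fold. Rpl26 had 70.7 and 8686, and the other lines stood at 6.17 to 6.66. Kpna2, Cldn34c1, Ifi211, and Fbxl7 were higher in all 5 lines, and Eno1b and Ifi202b lower. Rpl26, Kpna2, Eno1b, Eif2s3y, Ifi211, and Ifi202b have near-identical copies or close paralogs in the genome, so their values are uncertain.

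For others the lines differed. Pcdh9, a protocadherin, had 1.11 normalized counts in wildtype and 456 in Q133H (7.76), whereas the other 4 lines ranged from -0.04 to 3.17. It was higher in Q133H at day 0 (6.01) and day 2 (7.49). Serping1, the C1 inhibitor, had 2217 and 8.23 (-7.91), with other lines from -3.63 to -1.04. Ankrd2, a stretch-responsive muscle protein, had 3557 and 3.38 (-9.67) and was lower in all the lines, from -4.19 in EMD-/y to -8.08 in Del9599. Adamtsl2 (-8.10), Cilp (-7.85), Atp9a (-7.50), and Megf6 (-7.46) were also at under 3 normalized counts in Q133H. They were lower in Del9599 as well, at -6.02, -5.81, -5.56, and -5.98, and in +EMD, at -4.44, -3.93, -4.85, and -2.91. S54F stood at -2.70, -2.97, -3.17, and -3.53, and EMD-/y at -0.38, -0.68, -0.92, and -1.63.

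To place Q133H among the other lines, each line's own difference from wildtype at day 1 is given, all of which share the wildtype libraries. For myosins the medians were -4.10 in Q133H, -3.81 in Del9599, -1.82 in +EMD, -1.11 in S54F, and 0.23 in EMD-/y. For coupling genes, in the same order, they were -3.98, -3.19, -1.02, -0.56, and 0.13. Myog was at -3.73, -1.89, -0.42, -0.08, and -0.23, Myod1 at -1.55, -0.74, 0.02, 0.03, and -0.33, and Rb1 at -1.74, -1.23, -0.53, -0.42, and -0.31. Q133H thus had the lowest of the 5 values for each of these, with no spread to set it against. It did not for Mef2c, which was at -3.79 in Q133H, -5.48 in Del9599, and -4.50 in +EMD. The +EMD progenitors were also below wildtype in myosin genes. For DNA replication genes the medians, in the order used for myosins, were 0.79, 0.95, 1.26, 0.60, and 0.10. For mitosis genes they were 0.76, 0.88, 0.87, 0.51, and 0.05. Q133H was thus not the highest line in either list. The collagen median was -1.67 in Q133H and ranged from -0.99 to 0.47 in the other lines.

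The size of a difference depends on the level of the gene. The deposited values are not plain means, since none of them is 0. All 764 genes with an average under 0.2 normalized counts took 1 of 6 averages, as a single read in 1 of the 6 libraries would give, and the groups differed by at most 1.32-fold there. The largest ratio grew with the level, from 2.69-fold at averages of 0.2 to 0.5 to 39.4-fold at 5 to 10 and 277-fold at 50 to 100. Differences of genes with low values, such as Vwf, Myl2 (-2.94), and Col13a1 (-2.84), are therefore limited in size by their level, and a value below about 1 stands for few or no reads.

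**Figure D5:**
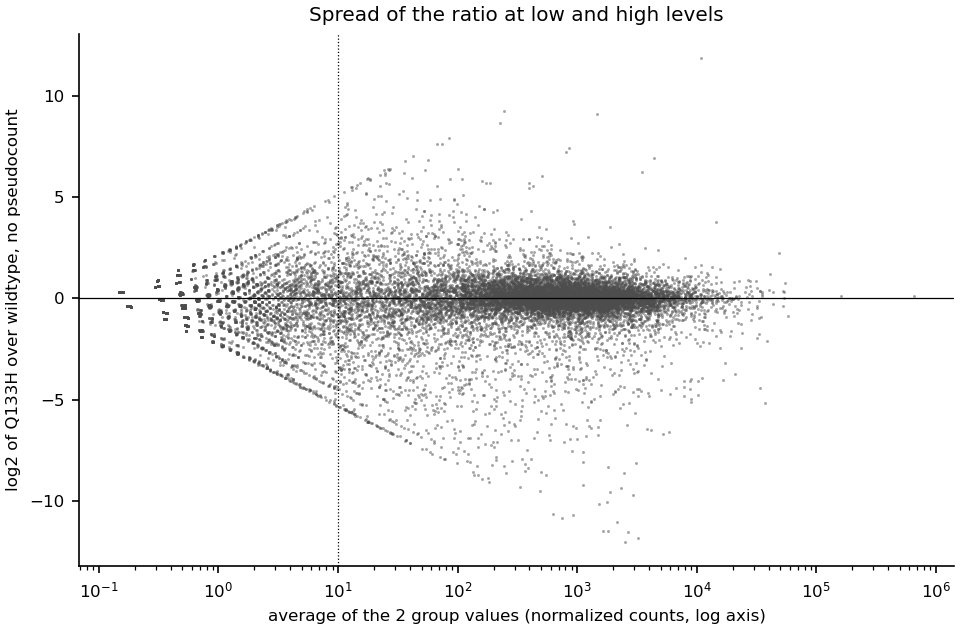
Log2 ratio of Q133H over wildtype without a pseudocount (y) against the average of both group values (x, normalized counts, log axis) for all 17514 genes, 1 point per gene, with the limit of 10 dotted. At the left the genes fall on a few discrete steps, and the outer edges open with the level, from 1.32-fold under 0.2 to 277-fold at 50 to 100.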

How the data were processed

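The authors' sequencing provider filtered the reads with SOAPnuke, mapped them to the mouse genome (mm10) with HISAT2, and compared groups with DESeq2, per the labels and methods. Versions and the counting tool are not given in the sources used here. The deposited signal values are group values of normalized counts, made by the authors within each table. They appear to carry a moderation that pulls low values of both groups together. The tables also hold log2 fold changes, p-values, and q-values, which were not used. Of 27 tables, 11 were used and 16 were not. Groups were taken from the sample titles.

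Log2 differences used a pseudocount of 1, a higher value of at least 10, and a 2-fold call. Tables were normalized separately, so log2 differences were taken within a table. Counts of a gene printed for several days come from separate normalizations. Of 15953 numbered gene IDs, 15930 matched a RefSeq symbol (GRCm38.p6), and 1561 predicted genes were counted but not named. Some named genes are not reported here. The genes named were Emd, the genes the study discusses, up to 6 members of each list with the largest differences, core members that did not differ, and the 15 highest and 15 lowest genes with at least 100 normalized counts. Col13a1, Myl2, and some day 0 and day 2 values were named as examples after their values were seen. The members and lists were chosen with earlier results of these data known, and the imprinted list after the values were seen. The calling step was run on simulated counts, averaged as plain means and with no spread between replicates beyond that of counting. This checked the calculation and cannot show how reliable the calls are in the deposited values. Alternatives changed the pseudocount, the limit, the scaling, the fold, and the predicted genes. Python 3.11.15, pandas 2.3.3, numpy 2.4.6, and matplotlib 3.10.9 were used.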

Additional observations from a re-analysis of the deposited data

How the results depend on the processing

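With a single value per group no test was run here, and the p-values of the tables were not used, so the counts describe these libraries only. At 1.5-fold the calls were 2539 higher and 2968 lower (53.9% lower), and at 4-fold 425 higher and 1071 lower (71.6% lower). With both groups scaled to the same sum the share of lower genes was 53.9%, which that scaling produces by shifting all genes upwards. Without a pseudocount, with a pseudocount of 5, without the limit, with a limit of 50, after centring on the median, and without predicted genes, the counts were 950 to 1537 higher and 1460 to 2396 lower, and 60.2% to 61.2% were lower. Of 349 recomputed list medians 10 changed sign, in 7 lists. Those that had been at least 1 in size were the medians of the adipocyte markers, which became 0.06 without the limit, and of the epithelial markers, which became 1.04 with a limit of 50. Without the limit the bone and cartilage markers became 0.04 and the leukocyte markers -0.03, and the other sign changes were in lists with medians within 0.1 of 0 (nuclear lamina, matrix proteases, hypoxia and glycolysis). Of 383 recomputed values of 55 named genes 4 changed sign, those of Wwtr1 and Stk3 after scaling and after centring, both below 0.01 in size as reported. A further 28 moved by over 1 log2 unit, all with another or no pseudocount. No paired analysis was possible because the tables hold no column per replicate, and for the same reason no replicate could be left out. Differences of genes with few reads are limited by depth, which is not known per sample.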

Other observations

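Signalling genes not described above differed in both directions, where over all genes 9.49% were higher and 14.6% lower. Of 44 receptor tyrosine kinase ligands, receptors, and ERK feedback genes, 12 were higher and 12 lower, with a median of 0.24. Among the higher ones were genes that respond to ERK signalling, with Etv4 at 146 normalized counts in wildtype and 871 in Q133H, Dusp5 at 58.2 and 332, and Dusp4 at 263 and 878. The growth factor gene Fgf7 (2.03) was higher too, while the receptors Erbb3 (-5.21) and Fgfr4 (-5.47) were lower. Of 44 TGF-beta and BMP genes, 7 were higher and 11 lower. The BMP antagonists split within this list, with Grem1 at 157 and 699, whereas Chrd had 529 and 7.71 and Nog 94.2 and 9.42. Wnt genes had 17 of 38 lower and 4 higher, with Wnt10a at -6.02 and Wnt5a at 1.91. Targets of the antioxidant factor NRF2 had 5 of 19 higher and 1 lower (median 0.45), with Srxn1 at 409 and 1772.

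In the list of imprinted genes, which was chosen after the values were seen, 8 of 21 were lower in Q133H and 2 higher. Snurf (chr7:59982495-60005199, GRCm38) had 272 normalized counts in wildtype and 0.65 in Q133H, and the overlapping Snrpn had 10.3 and 0.46. Snurf was lower in Q133H on each day (-5.47, -7.37, and -6.80), and the other 4 lines were within -0.39 to 0.01 at day 1. Ndn, which lies on the same chromosome, was higher in Q133H at 1.46, and Ube3a was at -0.67. These values cannot be set against a spread between samples.

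A few ribosomal and mitochondrial genes changed sides between days. Rps13 was at 1.70 at day 0 and -1.52 at day 1, Rps29 at 1.99 and -1.75, and Atp5g2 at 1.74 and -2.51. At day 1 the 4 transduced lines were all below wildtype for these 3 genes, at -1.37 or lower, while EMD-/y was at -0.13, 0.14, and 0.06. Cytosolic ribosomal protein genes as a whole had a median of 0.33, with 8 of 79 higher, near the 9.49% of all genes, and 3 lower. Gapdh, often used as a reference gene, had 1534 normalized counts in wildtype and 27603 in Q133H at day 0, and 6555 and 8865 at day 1. Genes of this kind have many near-identical copies, so their values are uncertain, and the part of the copies in these values was not tested.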
